A study of Mus musculus with 6 samples.

Results

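The 10 genes described here encode the nuclear and cytoplasmic core of the canonical Wnt pathway: the TCF/LEF transcription factors *Lef1*, *Tcf7*, *Tcf7l1* and *Tcf7l2*, β-catenin (*Ctnnb1*), the scaffolds *Axin1*, *Axin2* and *Apc*, the kinase *Gsk3b* and the feedback inhibitor *Nkd1*. They were chosen by name from 24393 features, and all 10 were found in the count tables and passed the filter on low counts. Their levels were measured by RNA sequencing in non-differentiated KH2 cells, a mouse embryonic stem cell (mESC) line labelled strain C57/BL/6, in 3 control and 3 *HOXA13*-overexpressing cultures. Both groups were grown with LIF on irradiated 3T3-Swiss albino fibroblasts as feeder cells, and the labels state no treatment for either. According to the methods of the study, human *HOXA13* with a FLAG tag was targeted into KH2 cells under the control of doxycycline. Whether the sequenced cultures of either group received doxycycline is not given in the labels. The methods call the 3 cultures of each group biological replicates, and the number of clones behind them is not stated.

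In the absence of a Wnt signal, AXIN and APC hold β-catenin beside the kinases GSK3B and casein kinase 1, which phosphorylate it and mark it for ubiquitination and breakdown. When Wnt ligands bind at the membrane this destruction complex is disabled, and β-catenin enters the nucleus and binds TCF/LEF proteins on DNA. In mouse ES cells TCF7L1 acts mainly as a repressor of pluripotency genes, whereas LEF1 and TCF7 are mostly partners of β-catenin in activation. *Axin2*, *Nkd1* and *Lef1* are themselves transcribed in response to the pathway in many tissues. Much of the pathway is regulated at the protein level, which mRNA counts do not measure.

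The libraries held between 13494135 and 21766589 counts, and 13846 genes were tested. The human feature ENSG00000106031 was counted 6, 0 and 0 times in the controls, against 4298, 4177 and 2881 times where *HOXA13* was overexpressed. With edgeR's quasi-likelihood test, 1842 genes (13.3%) were lower and 1994 (14.4%) were higher in *HOXA13*-overexpressing cultures at an adjusted p under 0.05. Of 10 markers of ES cell identity, 5 were higher and 1 was lower, with a summed level of 2548 to 3526 CPM (the counts of a library set to the same total, with TMM factors) in control and 3616.5 to 3735 CPM in *HOXA13*-overexpressing libraries. Of 20 fibroblast genes 1 passed (*Pdgfra*, which was lower), and their summed levels of 13217 to 18760 and 16523 to 20165 CPM overlapped between the groups. Control replicate 1 was the lowest of the 6 libraries in both sums, at 2548 and 13217 CPM, and the part of this in the results below was not tested.

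Against that background, 4 of the 10 genes were lower (*Lef1*, *Tcf7*, *Tcf7l1* and *Axin2*), 1 was higher (*Tcf7l2*) and 5 did not pass the threshold (*Ctnnb1*, *Axin1*, *Apc*, *Gsk3b* and *Nkd1*). Every TCF/LEF factor therefore passed, and of the 6 other genes only *Axin2* did. The highest library of one group lay below the lowest of the other for 5 genes that were lower and 3 that were higher with *HOXA13*, compared with 22.2% and 23.5% of all genes tested. *Apc* and *Nkd1* overlapped between the groups.

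**Figure D1:**
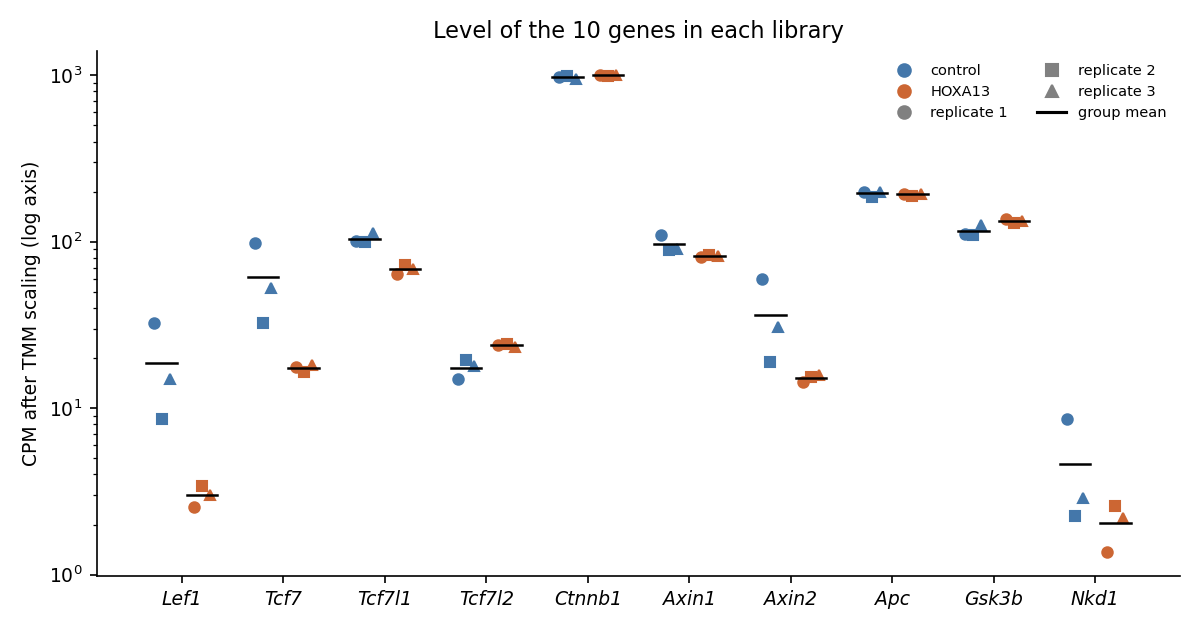
Level of each of the 10 genes in CPM after TMM scaling, on a log axis. Each point is 1 library (blue control, orange *HOXA13*-overexpressing, with the shape giving the replicate) and each black line is the mean of 3. The control points of *Lef1*, *Tcf7*, *Axin2* and *Nkd1* are spread apart, with replicate 1 highest, whereas those of *Ctnnb1* and *Apc* nearly coincide.

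*Lef1* (chromosome 3 of mm9, 130813389 to 130927274, plus strand) showed the largest difference among the 10 genes. It was at 32.55, 8.63 and 15.01 CPM in control libraries 1, 2 and 3, and at 2.54, 3.41 and 3.02 CPM in the *HOXA13*-overexpressing libraries. In counts these are 730, 127 and 297 against 50, 62 and 40. The control libraries differed among themselves by 3.77-fold, and the lowest of them was still 2.53 times the highest *HOXA13*-overexpressing library. *Lef1* fell 6.32-fold (log2 fold change -2.66, standard error 0.47, 95% interval -3.73 to -1.59, adjusted p = 0.00462). Without control replicate 1 the log2 fold change was -1.999 (adjusted p = 0.000348), and without *HOXA13* replicate 1 it was -2.54 (adjusted p = 0.0397). In these bulk libraries, fewer cells that express a gene and less RNA per cell cannot be told apart.

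RefSeq lists 4 *Lef1* start windows, each running from 250 bases before to 50 bases after a start site, and all 4 were placed on mm9 by exact match. They were searched on both strands for the TCF/LEF letters CTTTGA or CTTTGT, which 31.2% of 32851 mouse windows of this length hold. The 3 windows near the beginning of the gene held none, and the window at an internal start site, in an intron, held 3. The 250 bases before the outer start at 130813241 (chr3:130812991-130813240, plus strand) and before the intronic start at 130859212 (chr3:130858962-130859211, plus strand) are shown because they differ in this respect. Capitals mark the matches, which on this strand read TCAAAG or ACAAAG and begin 180, 146 and 120 bases before the intronic start site.
Lef1 outer start: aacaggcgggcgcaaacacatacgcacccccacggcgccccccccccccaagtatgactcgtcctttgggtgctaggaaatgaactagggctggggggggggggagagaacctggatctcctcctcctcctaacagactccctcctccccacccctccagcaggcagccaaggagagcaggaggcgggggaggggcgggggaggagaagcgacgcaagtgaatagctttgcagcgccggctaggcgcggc
Lef1 intronic start: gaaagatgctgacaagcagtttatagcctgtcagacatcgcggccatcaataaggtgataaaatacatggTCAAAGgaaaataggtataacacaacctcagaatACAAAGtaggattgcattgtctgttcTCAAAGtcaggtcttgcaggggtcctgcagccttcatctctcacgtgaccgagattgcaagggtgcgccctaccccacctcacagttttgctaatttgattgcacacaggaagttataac

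The stretch before the outer start had a GC content of 66.4% and that before the intronic start 44.8%. An intronic promoter of *Lef1* is known to give a shortened protein without the part that binds β-catenin, and whether this start site is that promoter was not examined. The deposited counts are per gene and do not separate the transcripts, so which of them fell was not measured. A match of 6 letters is a description of the sequence and not evidence that a factor binds there.

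*Tcf7* (chromosome 11, 52065873 to 52096681, minus strand), which encodes TCF1, had the same order of control libraries as *Lef1*, replicate 1 above 3 above 2, at a higher level. It was at 98.5, 32.7 and 53.1 CPM in control and at 17.7, 16.6 and 18.1 CPM in *HOXA13*-overexpressing libraries. All 3 *HOXA13*-overexpressing values lay below the lowest control value, and they were within 1.58 CPM of each other. The decrease was 3.53-fold (log2 fold change -1.82, standard error 0.35, 95% interval -2.62 to -1.02, adjusted p = 0.0068). Without control replicate 1 the log2 fold change was -1.31 (adjusted p = 0.000519), and without *HOXA13* replicate 1 it was -1.83 (adjusted p = 0.0469). Over chromosome 11 as a whole the median log2 fold change was -0.12, and with each chromosome centred *Tcf7* was still past the threshold.

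*Tcf7l1* (chromosome 6, 72576372 to 72739248, minus strand), which encodes the repressor TCF3 of the ES cell literature, differed by less but with little spread. Its levels were 102, 99.2 and 112 CPM in control and 63.6, 72.6 and 68.2 CPM in *HOXA13*-overexpressing libraries. The groups did not overlap, and control replicate 1, which stood far above the other controls for *Lef1* and *Tcf7*, lay between them here. *Tcf7l1* was 34.8% lower (log2 fold change -0.62, standard error 0.08, 95% interval -0.80 to -0.43, adjusted p = 0.00119). This difference was past the threshold in all 15 alternative fits, with log2 fold changes between -0.69 and -0.56. Gm15401, annotated on the opposite strand across exons of *Tcf7l1*, had at most 1 count in a library.

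*Tcf7l2* (chromosome 19, 55816300 to 56008144, plus strand), which encodes TCF4 and is the main TCF factor of the intestinal epithelium, was the only TCF/LEF gene that rose. It was at 14.9, 19.5 and 17.8 CPM in control and at 23.9, 24.4 and 23.2 CPM in *HOXA13*-overexpressing libraries. Its lowest control library was replicate 1, the library in which *Lef1* and *Tcf7* were highest. The increase was 37.5% (log2 fold change 0.46, standard error 0.11, 95% interval 0.20 to 0.72, adjusted p = 0.0195). It did not pass without control replicate 3 (adjusted p = 0.0547), nor without *HOXA13* replicate 1, 2 or 3 (adjusted p = 0.0743, 0.0813 and 0.0594).

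**Figure D2:**
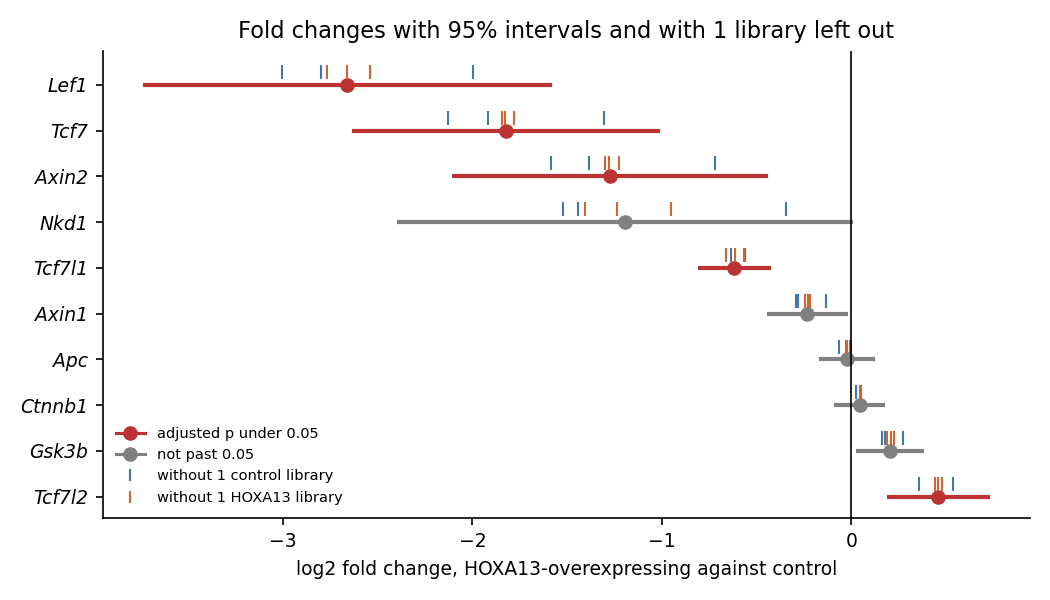
Log2 fold change of each gene in *HOXA13*-overexpressing against control cultures (points) with its 95% interval (bars), in red where the adjusted p was under 0.05. Ticks above each bar are the estimates with 1 library left out. Leaving out control replicate 1 moves *Lef1*, *Tcf7*, *Axin2* and *Nkd1* toward 0, whereas the ticks of *Tcf7l1*, *Ctnnb1* and *Apc* stay close to their points.

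To compare the 4 factors with each other, counts were divided by the length of each gene's merged exons. The summed TCF/LEF level was 71.4, 44.8 and 56.6 CPM per kilobase in control and 28.5, 31.0 and 30.03 CPM per kilobase in *HOXA13*-overexpressing libraries. *Tcf7l1* held the largest mean share of that sum in both groups, 56.4% ± 12.2 (SD, n = 3) in control and 68.7% ± 1.73 (SD, n = 3) with *HOXA13*. In control replicate 1 alone, *Tcf7* was ahead, with 49.5% against 42.9% for *Tcf7l1*, an order that turned without division by length (39.8% against 41.1%).

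*Lef1* and *Tcf7* together made up 54.7%, 28.4% and 36.7% of TCF/LEF expression per length in the control libraries and 23.3%, 20.4% and 22.8% in the *HOXA13*-overexpressing libraries. The share of *Tcf7l2* was 3.66% ± 1.30 (SD, n = 3) and 9.15% ± 0.39 (SD, n = 3). Single shares depend on the length used, and by the longest coding transcript, a choice made after seeing the data, *Tcf7l2* was at 4.08%, 8.65% and 6.26% in control and at 16.3%, 15.4% and 15.1% with *HOXA13*. By that length *Lef1* was at 2.13%, 2.64% and 2.42% with *HOXA13*. By merged exons, *Tcf7l2* held a mean share of 9.15% against 1.16% for *Lef1* with *HOXA13*, whereas in control the ranges of both genes overlapped. The difference in the combined share of *Lef1* and *Tcf7* was -17.7 percentage points, with p = 0.1 in a two-sided exact permutation test, and without control replicate 1 it was -10.3 percentage points. For the ratio of *Lef1* to *Tcf7l1* counts, the control libraries were at 32.0%, 8.70% and 13.4% and the *HOXA13*-overexpressing libraries at 3.99%, 4.70% and 4.43%, also with an exact p of 0.1. The smallest p that 3 against 3 libraries can give is 0.1, and 3 such tests were made (adjusted p = 0.1 for each).

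**Figure D3:**
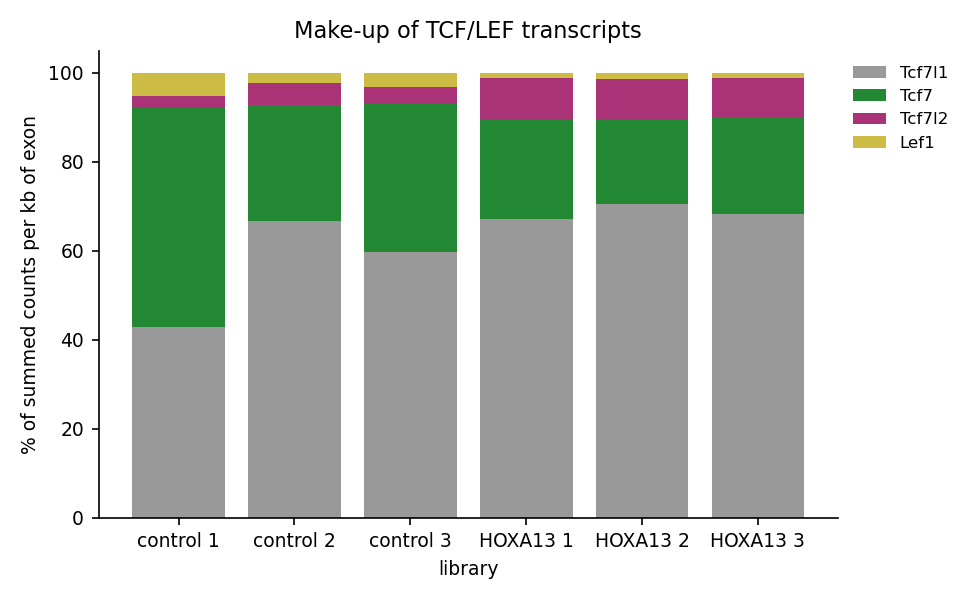
Share of each TCF/LEF gene in the summed counts per kilobase of exon, for each library. *Tcf7* (green) and *Lef1* (yellow) together range from 28.4% to 54.7% in control and from 20.4% to 23.3% in *HOXA13*-overexpressing libraries, and *Tcf7l2* (purple) is wider in each *HOXA13*-overexpressing bar than in any control bar.

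*Ctnnb1* (chromosome 9, 120838334 to 120869625, plus strand) had the highest level of the 10 genes on the per-length scale in both groups, 191 ± 5.02 (SD, n = 3) and 197 ± 1.27 (SD, n = 3) CPM per kilobase. Its CPM was 977, 996 and 946 in control and 1009.6, 997 and 1006 in *HOXA13*-overexpressing libraries. Every *HOXA13*-overexpressing library was above every control library, by 0.65 CPM at the nearest, and the difference did not pass the test (log2 fold change 0.05, standard error 0.05, 95% interval -0.08 to 0.17, adjusted p = 0.575). With scaling by library size alone the direction turned (log2 fold change -0.03). *Ulk4*, on the opposite strand and overlapping exons of *Ctnnb1*, had between 27 and 51 counts in a library.

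The kinase and scaffolds that make up the constant part of the destruction complex differed little. *Apc* (chromosome 18, 34380578 to 34481843, plus strand) was at 199.98, 185 and 200.2 CPM in control and 194, 189 and 195 CPM with *HOXA13*, so that the groups overlapped (log2 fold change -0.02, 95% interval -0.16 to 0.12, adjusted p = 0.828). *Gsk3b* (chromosome 16, 38089087 to 38246170, plus strand) was at 111, 109.8 and 127 CPM in control and 137, 130.3 and 134 CPM with *HOXA13*. The *Gsk3b* groups did not overlap, and the log2 fold change of 0.21 (95% interval 0.04 to 0.38) did not pass (adjusted p = 0.0694), although it did without control replicate 3 (adjusted p = 0.0342).

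*Axin1* and *Axin2* encode interchangeable scaffolds, of which *Axin1* is expressed broadly and *Axin2* is induced by the pathway. *Axin1* (chromosome 17, 26275631 to 26332756, plus strand) was at 109, 89.7 and 90.2 CPM in control and 80.9, 83.6 and 81.9 CPM with *HOXA13*, without overlap (log2 fold change -0.23, standard error 0.09, adjusted p = 0.086). It passed with scaling by library size alone (adjusted p = 0.038) and without control replicate 2 (adjusted p = 0.0331). Without control replicate 1 its log2 fold change was -0.13 (adjusted p = 0.137). *Axin2* (chromosome 11, 108781663 to 108812097, plus strand) was at 59.6, 19.0 and 30.6 CPM in control and at 14.3, 15.4 and 15.9 CPM with *HOXA13*. The *HOXA13*-overexpressing libraries were within 1.56 CPM of each other, and control replicate 2 stood only 3.08 CPM above the highest of them.

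*Axin2* fell 2.42-fold (log2 fold change -1.27, standard error 0.36, 95% interval -2.10 to -0.45, adjusted p = 0.0317). Without control replicate 1 the log2 fold change was -0.72 and passed (adjusted p = 0.0126). The call was lost with limma-voom (adjusted p = 0.0633), without control replicate 3 (adjusted p = 0.0615) and without *HOXA13* replicate 1, 2 or 3 (adjusted p = 0.131, 0.103 and 0.0937). Relative to *Axin1* counts, *Axin2* was at 54.6%, 21.1% and 33.9% in control and at 17.7%, 18.4% and 19.4% in *HOXA13*-overexpressing libraries (two-sided exact permutation test, p = 0.1). *Axin1* thus had more counts than *Axin2* in every library of both groups. The part of *Axin2* was nearly constant in *HOXA13*-overexpressing libraries and differed from library to library in control.

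The 300-base RefSeq windows of the remaining genes were searched in the same way. *Axin1* and *Apc* had no window in the table used. *Axin2*, *Tcf7*, *Ctnnb1* and *Nkd1* held neither TCF/LEF pattern, while *Tcf7l1*, *Gsk3b* and an internal start of *Tcf7l2* held 1 each. None of the 14 windows of the 8 genes held TTTATTG or TTTACGA, letters bound by HOX13 proteins, which 5.15% of all windows hold on either strand. The 250 bases before the *Axin2* start (chr11:108781413-108781662, plus strand) are shown as the window of the pathway's own feedback gene, and 30 bases around each match for the others, with the match in capitals. These are chr6:72739050-72739079 (minus strand, in the annotated 5′ untranslated region) for *Tcf7l1*, chr16:38088998-38089027 (plus strand, upstream) for *Gsk3b* and chr19:55969785-55969814 (plus strand, intronic) for *Tcf7l2*.
Axin2 upstream: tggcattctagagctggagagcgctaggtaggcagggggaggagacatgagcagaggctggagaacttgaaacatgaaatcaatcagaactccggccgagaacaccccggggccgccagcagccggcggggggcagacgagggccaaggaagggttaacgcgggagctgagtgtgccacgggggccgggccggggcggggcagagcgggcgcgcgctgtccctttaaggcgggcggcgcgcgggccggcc
Tcf7l1 match: gccctgtcaaaaCTTTGTcgccgcagcggc
Gsk3b match: cttctccccgccTCAAAGagggaggggagg
Tcf7l2 match: caaaatatcaggCTTTGTtcttttgattga

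Neither the presence nor the absence of these letters separated the genes that changed from those that did not. Of the 4 genes with a match, *Lef1* and *Tcf7l1* fell, *Tcf7l2* rose and *Gsk3b* did not pass. Absence says only that these letters are not in the windows searched.

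*Nkd1* (chromosome 8, 91045243 to 91118786, plus strand), which encodes an inhibitor that binds Dishevelled, had the lowest level in control on the per-length scale. It was at 8.65, 2.24 and 2.88 CPM in control and at 1.37, 2.59 and 2.19 CPM in *HOXA13*-overexpressing libraries. Only control replicates 1 and 3 were above all *HOXA13*-overexpressing libraries, and replicate 2 lay among them. The log2 fold change was -1.19 (standard error 0.52, adjusted p = 0.1251). It was -0.35 without control replicate 1 (adjusted p = 0.428) and -1.52 without control replicate 2 (adjusted p = 0.0246), so that which control libraries were used decided its size.

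Ordered by CPM per kilobase, control libraries had *Ctnnb1* first, followed by *Tcf7l1*, *Axin1*, *Tcf7*, *Apc*, *Gsk3b*, *Axin2*, *Lef1*, *Tcf7l2* and *Nkd1*. Apart from the steps from *Ctnnb1* to *Tcf7l1*, from *Tcf7l1* to *Axin1* and from *Gsk3b* to *Axin2*, neighbours in this order overlapped in range. In *HOXA13*-overexpressing libraries the order was *Ctnnb1*, *Axin1*, *Tcf7l1*, *Gsk3b*, *Apc*, *Tcf7*, *Axin2*, *Tcf7l2*, *Nkd1* and *Lef1*. Here only *Axin1* with *Tcf7l1*, *Axin2* with *Tcf7l2* and *Nkd1* with *Lef1* overlapped. *Tcf7* dropped from the fourth place, at 22.01 ± 12.1 (SD, n = 3) CPM per kilobase, to the sixth, at 6.26 ± 0.29 (SD, n = 3). *Lef1* dropped from the eighth, at 2.16 ± 1.43 (SD, n = 3), to the last, at 0.35 ± 0.05 (SD, n = 3). This last place depends on the length used, as in plain CPM *Lef1* (mean 2.99) was above *Nkd1* (mean 2.05) with *HOXA13*.

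The 10 genes split by how much the control cultures differed from each other. The highest control library exceeded the lowest 3.86-fold for *Nkd1*, 3.77-fold for *Lef1*, 3.14-fold for *Axin2* and 3.01-fold for *Tcf7*, against 1.05-fold for *Ctnnb1* and 1.08-fold for *Apc*. To set these spans beside other genes, 0.5 CPM was added before taking log2, which damps the span of low genes, and the 12123 genes whose average log2 CPM was 1 or more were compared. On that scale the control span of *Lef1* was larger than that of 99.2% of genes, and those of *Nkd1*, *Axin2* and *Tcf7* were larger than those of 99.0%, 98.7% and 98.6%. *Ctnnb1* and *Apc* were among the least variable, with smaller spans in 7.46% and 15.2% of genes.

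Between the highest and the lowest *HOXA13*-overexpressing library the ratio was 1.34 for *Lef1*, 1.11 for *Axin2* and 1.10 for *Tcf7*, and 1.89 for *Nkd1*. On the log2 scale used above, the spans of *Nkd1* and *Lef1* in this group also exceeded those of most genes (99.3% and 89.4%), whereas those of *Axin2* and *Tcf7* exceeded 45.7% and 39.1%. *Lef1*, *Tcf7*, *Axin1*, *Axin2* and *Nkd1* were highest in control replicate 1, then 3, then 2, an order that 25.5% of all genes tested shared. Set against the average *HOXA13*-overexpressing library, the 3 control libraries stood 10.9-, 2.88- and 5.02-fold higher for *Lef1*, and 3.93-, 1.25- and 2.01-fold higher for *Axin2*. Control replicate 2 was thus the closest to the *HOXA13*-overexpressing cultures for these genes.

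The mesendoderm gene *T*, which encodes Brachyury and is a target of β-catenin, had the same order, with 181, 10.5 and 85.2 CPM in control and 1.37, 2.48 and 2.27 CPM in *HOXA13*-overexpressing libraries. Of 14 markers of primitive streak and mesendoderm, *T* among them, 11 were tested, 7 of these were lower and 1 was higher (13.3% and 14.4% of all genes), and *Cer1* had at most 3 counts in every library. Their summed level was 553, 99.3 and 279 CPM in control libraries 1, 2 and 3 and between 64.1 and 66.4 CPM in *HOXA13*-overexpressing libraries. This sum, to which *T* alone gave 181 of 553 CPM in control library 1, thus moved with *Lef1*, *Tcf7* and *Axin2* within and between the groups. Within the control group it also moved with *Nkd1*. The other markers are not given per library here, and the part of these markers in the results for those genes was not tested.

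**Figure D4:**
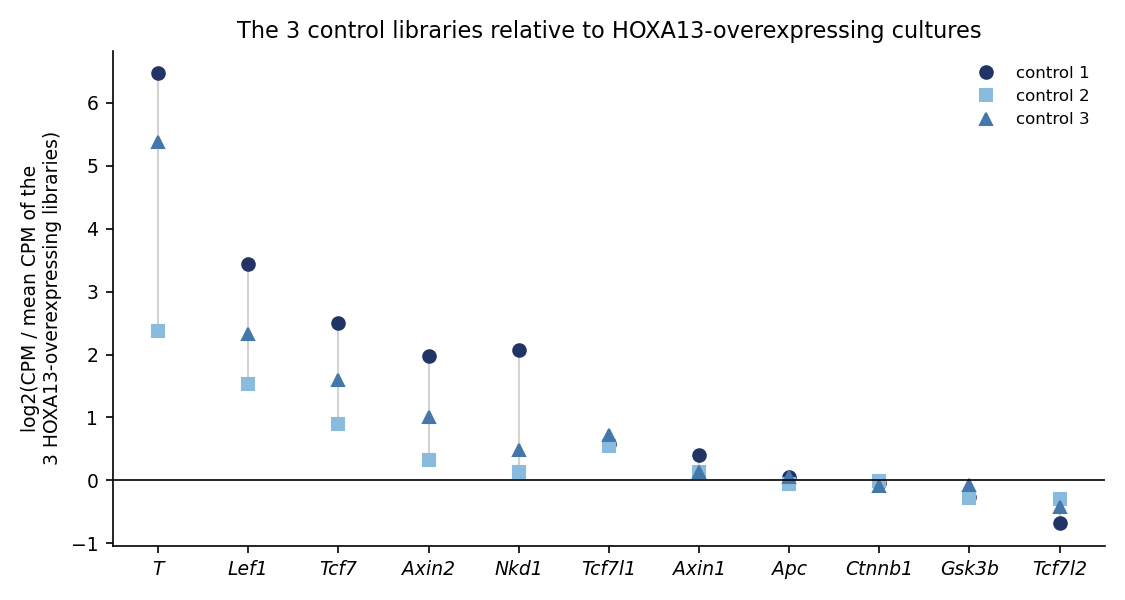
Log2 of the level in each control library over the average of the 3 *HOXA13*-overexpressing libraries (the line at 0), for *T* and the 10 genes. For *T*, *Lef1*, *Tcf7*, *Axin2* and *Nkd1* replicate 1 (dark circle) is highest and replicate 2 (light square) lowest, for example 6.47 and 2.37 for *T*, 3.44 and 1.53 for *Lef1* and 2.08 and 0.13 for *Nkd1*, while for *Apc* and *Ctnnb1* all 3 lie within 0.09 of 0.

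The genes with the pattern most like that of each of 3 members were found among 12013 genes of sufficient level, as those with the smallest root-mean-square difference of centred log2 CPM over the 6 libraries. For *Lef1* these were *Car2* (0.14), *Nrcam* (0.14), *Arrb1* (0.16), *Chst15* (0.16) and *Arap3* (0.17). *Car2*, a carbonic anhydrase, was at 239.8, 63.6 and 133 CPM in control and between 25.0 and 29.7 CPM with *HOXA13*. For *Axin2* they were *Irgm2* (0.07), *Tapbp* (0.08), *Irgm1* (0.09), *Rasal1* (0.10) and *Cdh3* (0.10). Among them *Irgm1* and *Irgm2* are interferon-induced GTPases and *Tapbp* serves antigen presentation, and *Cdh3* is P-cadherin, which binds β-catenin at the membrane.

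*Tcf7l1* was most like *B4galt2* (0.02), *Tulp3* (0.05), *Ldha* (0.06), *Tspan5* (0.06) and *Mrpl34* (0.06), all of them lower with *HOXA13* by 0.52 to 0.64 on the log2 scale. The difference between *Tcf7l1* and *Lef1* was 1.05 on this measure and that between *Tcf7* and *Lef1* 0.41. These genes were selected for their likeness, and their likeness is a description over 6 libraries that share 1 comparison.

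The other proteins that act on β-catenin were followed in lists. Of 25 partners and regulators of the destruction complex, 5 were higher, 4 were lower and 16 did not pass, with a median log2 fold change of -0.07 against 0.00 for all genes tested. These counts are near the 14.4% higher and 13.3% lower among all genes, and with 1 library left out they ranged from 3 to 5 and from 1 to 6. The pair that changed most were parts of the ubiquitin ligase that receives phosphorylated β-catenin. *Btrc*, which encodes its substrate receptor β-TrCP, was at 45.3, 38.4 and 42.6 CPM in control and 89.6, 90.6 and 87.2 CPM with *HOXA13*, a 2.11-fold rise (log2 fold change 1.08, standard error 0.08, adjusted p = 7.66e-05). *Cul1*, its cullin scaffold, was at 237, 228 and 237 CPM in control and 534, 469 and 446 CPM with *HOXA13*, a 2.06-fold rise (log2 fold change 1.05, standard error 0.08, adjusted p = 7.82e-05).

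Unlike *Lef1* and *Axin2*, *Btrc* and *Cul1* differed little among the control libraries. Both passed in all 15 alternative fits, with log2 fold changes of 1.00 to 1.13 and 0.97 to 1.10. The adaptor *Skp1a* (log2 fold change -0.01, adjusted p = 0.917) and the second β-TrCP gene *Fbxw11* (-0.12, adjusted p = 0.377) did not pass. This ligase has many substrates besides β-catenin, and β-catenin protein was not measured in these data.

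Also higher was *Ppp2r5a*, a regulatory subunit of the phosphatase PP2A, with 56.2, 62.0 and 46.2 CPM in control and 79.5, 74.5 and 79.2 CPM with *HOXA13* (log2 fold change 0.51, adjusted p = 0.0102). *Ppp2r5a* lies on chromosome 1, where the median over all tested genes was 0.37 on the log2 scale, and with each chromosome centred its log2 fold change was 0.14 and it did not pass (adjusted p = 0.315), as also without *HOXA13* replicate 1 (adjusted p = 0.0546). *Amer1*, which recruits APC and AXIN to the membrane, fell from 24.6 ± 0.43 to 18.5 ± 1.02 CPM (SD, n = 3 each; log2 fold change -0.41, adjusted p = 0.00923), and did not pass without *HOXA13* replicate 2 (adjusted p = 0.0528).

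Among 22 nuclear cofactors of β-catenin and corepressors of TCF, 4 were higher, 5 were lower and 13 did not pass (14.4% and 13.3% of all genes were higher and lower), with a median log2 fold change of 0.12. Among those past the threshold, the largest increases were those of *Tle2*, a Groucho corepressor (log2 fold change 0.75, adjusted p = 0.0304), and *Cdc73*, a subunit of the PAF1 complex (0.72, adjusted p = 0.000944). The largest decreases past it were those of *Bcl9*, which bridges β-catenin to Pygopus (-0.60, adjusted p = 0.00942), and *Tnik*, a kinase that binds TCF proteins (-0.58, adjusted p = 0.0291). With 1 library left out the counts ranged from 1 to 8 higher and from 0 to 5 lower. Of these 4 genes only *Cdc73* passed in every such fit. *Tle2* and *Tnik* did not pass without control replicate 3 or without any 1 of the *HOXA13* libraries, and *Bcl9* did not without *HOXA13* replicate 1 (adjusted p = 0.0555).

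Feedback and target genes of the pathway were likewise divided. Of 20 listed, *Dkk1* and *Lgr5* were too low to be tested, and of the other 18, 5 were higher, 5 were lower and 8 did not pass (median log2 fold change -0.23), beside 14.4% higher and 13.3% lower among all genes. With 1 library left out, 3 to 6 were higher and 3 to 7 lower. Besides *T* (log2 fold change -5.53, adjusted p = 0.00519 and standard error 0.99), the zinc finger gene *Sp8* fell, from 223, 40 and 143 counts in the control libraries to 3, 0 and 4 with *HOXA13* (adjusted p = 0.00136). *Tnfrsf19*, a receptor of the TNF family, was at 39.8, 17.3 and 24.3 CPM in control and at 9.75, 8.97 and 8.54 CPM with *HOXA13* (log2 fold change -1.58, adjusted p = 0.00463). The caudal homeobox gene *Cdx1* went the other way, with 9.54, 16.2 and 6.27 CPM in control and 28.5, 28.5 and 33.0 CPM with *HOXA13* (log2 fold change 1.51, adjusted p = 0.00625).

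*Cdx1* thus had its highest control level in replicate 2, where *T*, *Sp8* and *Tnfrsf19* were lowest. *T* passed in 14 of 15 alternative fits, the exception being limma-voom (adjusted p = 0.111), and without control replicate 1 its log2 fold change was -4.60. Membership of this list says that a gene has been described as a target in some tissue, and the members moved in both directions. The list was chosen with earlier results known, and the study had itself reported *Sp8*, *T* and *Cdx1* as changed.

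β-catenin also links cadherins to the cytoskeleton, and 5 of 10 genes of that adhesion complex were lower, 1 was higher (*Ctnna1*, log2 fold change 0.29, adjusted p = 0.0207) and 4 did not pass (median -0.18), where 13.3% of all genes were lower and 14.4% higher. *Cdh3* was at 197.6, 72.8 and 109 CPM in control and at 50.8, 63.2 and 60.5 CPM with *HOXA13* (log2 fold change -1.13, adjusted p = 0.0302). Without control replicate 1 its log2 fold change was -0.66 (adjusted p = 0.0111). *Cdh1*, E-cadherin, was at 772, 524 and 650 CPM in control and at 452, 482 and 451 CPM with *HOXA13* (log2 fold change -0.49, adjusted p = 0.0225). *Jup*, plakoglobin, the closest relative of β-catenin, was 0.41 lower on the log2 scale (adjusted p = 0.0297), and *Mllt4*, afadin, 0.49 lower (adjusted p = 0.0128). With 1 library left out, between 0 and 5 genes of this list were lower, and *Cdh1* and *Cdh3* did not pass without control replicate 3 or without any 1 of the *HOXA13* libraries. *Jup* and *Mllt4* did not pass without any 1 of the *HOXA13* libraries.

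Of 7 genes reported as repressed by TCF7L1 in mouse ES cells, 4 were higher and 3 did not pass, with a median log2 fold change of 0.57, where 14.4% of all genes were higher. With 1 library left out, 3 to 6 were higher and 0 to 1 lower. This list was chosen with earlier results of these data known, and the study had itself reported *Nanog* and *Tbx3* as higher. Its count is therefore a description only. *Tfcp2l1* was at 192, 598 and 241 CPM in control and at 1669.8, 1565 and 1636 CPM with *HOXA13* (log2 fold change 2.24, standard error 0.38, adjusted p = 0.00401). It lies on chromosome 1 and passed with each chromosome centred, and without control replicate 2 its log2 fold change was 2.90. *Tbx3* was at 33.4, 66.8 and 40.7 CPM in control and at 199, 173 and 182 CPM with *HOXA13* (log2 fold change 1.98, adjusted p = 0.000636).

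*Esrrb* (log2 fold change 0.78, adjusted p = 0.0349) and *Nanog* (0.57, adjusted p = 0.000951) were the others that rose, and both are also among the markers of ES cell identity. *Esrrb* did not pass with DESeq2 (adjusted p = 0.0624), without control replicate 3 or without any 1 of the *HOXA13* libraries. For *Tfcp2l1*, *Tbx3*, *Esrrb* and *Nanog* control replicate 2 was the highest control, the reverse of *Lef1* and *Tcf7*, whereas *Tcf7l1* itself differed little between control libraries. *Klf2* (0.22, adjusted p = 0.431), *Nr0b1* (-0.26, adjusted p = 0.666) and *Foxa2* (-1.62, adjusted p = 0.158) did not pass. The 7 genes respond to many other factors of the ES cell network, and whether *Tcf7l1* bears on them was not tested here.

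**Figure D5:**
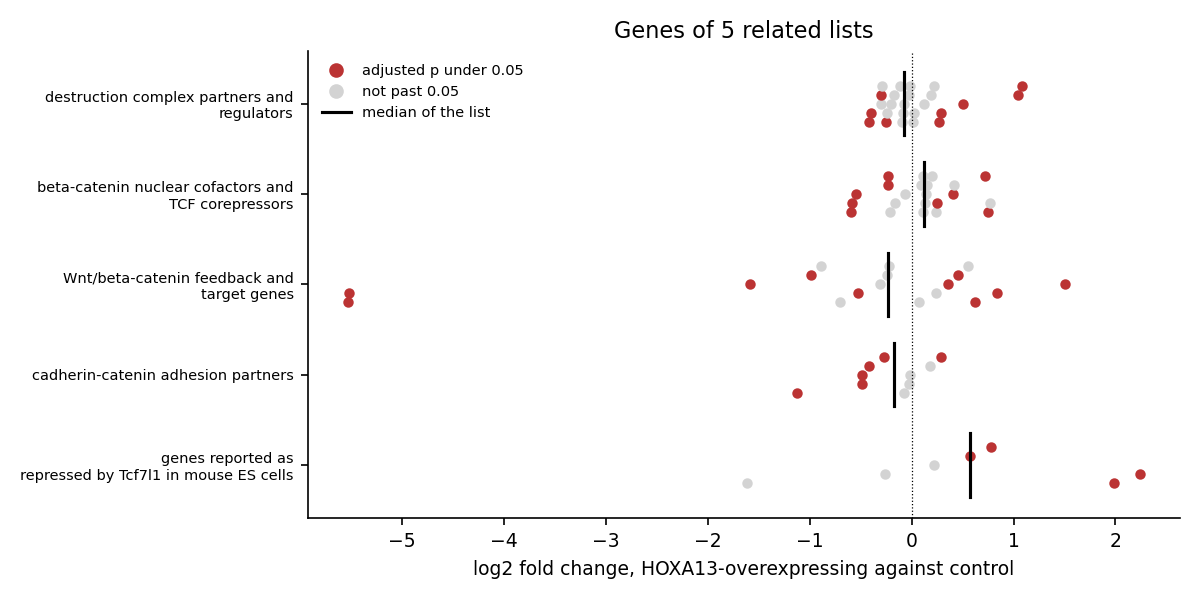
Log2 fold change of each tested gene of the 5 lists (points, red where the adjusted p was under 0.05), with the median of each list as a black line. Values lie on both sides of 0 in every list, with medians from -0.23 for feedback and target genes to 0.57 for genes reported as repressed by TCF7L1, and *Btrc* and *Cul1* are the pair near 1 in the top row. The fitted value of *Sp8*, at the far left, rests on 0 to 4 counts in *HOXA13*-overexpressing libraries.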

How the data were processed

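RNA from 3 control and 3 *HOXA13*-overexpressing cultures was sequenced by the authors from directional poly(A) libraries as reads of 75 bases. The submitters' processing notes name mm9, TopHat2 2.0.14 and HTSeq 0.6.1p1. The gene annotation and strand setting of the counting are not given in the sources used here. The authors deposited whole-number counts per gene without normalization, 1 table per library, with 24393 features. Fold changes by the authors were not used.

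The 10 genes and all lists were chosen with earlier results of these data known. Groups and replicate numbers came from the sample labels. Counts were filtered with filterByExpr (minimum count 10, minimum total 15), scaled with TMM and tested with the quasi-likelihood test of edgeR 4.0.16 in R 4.3.3 without covariates, with Benjamini-Hochberg adjustment over 13846 genes and a threshold of 0.05. Both groups share 1 dispersion estimate per gene, although controls were more variable for *Lef1*, *Tcf7*, *Axin2* and *Nkd1*. The code was first tested on simulated counts. Standard errors were derived from the fold change and its F statistic. Gene positions and exon lengths are from GENCODE vM1 on mm9. Promoter windows are from RefSeq (GRCm38.p6). Likeness used log2 CPM with a pseudocount of 2 and genes with a mean of at least 1. Named list genes are up to 4 per list with the largest change among those past the threshold, others being named where a result turned on them. Alternatives were RLE factors, library size alone, no filter, at least 10 counts in every library, robust estimation, a replicate block, DESeq2 1.42.0, limma-voom (limma 3.58.1), centring of each chromosome, and each library left out. The share by the longest coding transcript was added after seeing the data. P-values measure the spread between these libraries.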

Additional observations from a re-analysis of the deposited data

How the results depend on the processing

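*Lef1*, *Tcf7* and *Tcf7l1* were lower and past the threshold in all 15 alternative fits, and *Ctnnb1* and *Apc* were past it in none. *Ctnnb1* changed sign with library size alone, to -0.027. *Tcf7l2* passed in 11 fits, *Axin2* in 10, *Axin1* in 2, and *Gsk3b* and *Nkd1* in 1 each. Library size alone in place of TMM gave 1576 higher and 2500 lower genes, in place of 1994 and 1842. With 1 library left out there were 1134 to 2428 genes higher and 904 to 2579 lower, and among the 10 genes 0 to 1 higher and 3 to 6 lower. In the 5 lists together the same fits gave 10 to 25 higher and 6 to 24 lower genes. The smallest counts over all genes and in the lists came without a *HOXA13* library, and the cause was not tested. The combined share of *Lef1* and *Tcf7* differed by -23.5 to -10.3 percentage points with 1 library left out, and by -19.6 when lengths were those of the longest coding transcript, a choice made after seeing the data.

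Replicate numbers are shared by both groups in the labels. The deviations of same-numbered libraries correlated at -0.02, -0.05 and 0.02, which gave no sign of pairing. With 3 libraries per group, a smaller shared effect could go unseen. With the replicate number as a block, 1696 genes were higher and 1476 lower, and no call among the 10 genes changed. *Tnik*, *Cdh3* and *Jup* were no longer past the threshold (adjusted p = 0.0579, 0.0582 and 0.0585). Nor were *Irgm2*, *Tapbp* and *Rasal1*, named above as most like *Axin2* (adjusted p = 0.0538, 0.0736 and 0.0763), which passed in 8, 7 and 8 of 15 alternative fits. The block fit gave -2.48 for *Lef1*, -1.69 for *Tcf7* and -1.13 for *Axin2* (adjusted p = 0.045). In the block fit the sign-flip tests of the 3 ratios gave an exact p of 0.25, the smallest that 3 pairs allow. Among the 10 genes, depth limits *Nkd1* and *Lef1* most, the latter at 40 to 62 counts in *HOXA13*-overexpressing libraries.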
